A study of Mus musculus with 6 samples.

Results

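The 6 libraries of mouse B cell RNA fell into a pair of library sets that cut across the treatment. The first set held DMSO A, DMSO C and Cpd10 A, and the second set held DMSO B, Cpd10 B and Cpd10 C, so the sets took 3 and 3 of all 6 libraries. Each set contains libraries of both treatments, and the letters are the replicate letters of the labels. The sets were picked from the counts, with Sycp1 and Rnf150 as their marker genes, and no label names them. Every gene of the table therefore took part in the choice, and the differences between the sets are given as a description with no test.

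The cells were naive B cells sorted from the spleens of 10 male mice, 3 months of age, that had been immunised with sheep red blood cells 9 days before, over 2 independent experiments. They were pooled before culture and then grown for 5 days with mouse interleukin 4 (80 ng/ml) and an antibody against the receptor CD40 (5 µg/ml), which together stand in for T cell help. From day 3, for 48 hours, the cultures received either DMSO, the solvent, or 1 µM Cpd10, which the labels call a Foxo1 inhibitor. The labels describe the same sort, pooling, cytokine and antibody for all 6 libraries. The labels give no strain, and they do not say which cultures, animals or experiments the letters stand for, so whether a set is an experiment, a pool of animals or a preparation cannot be told apart.

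Counts ran from 36873204 to 44859930 per library, and 19148 to 19725 genes had at least 1 count. Cd79a, a signalling chain of the B cell receptor, lay between 598 and 829 CPM (counts scaled to the normalised size of each library) in all 6 libraries, so both sets carried the labelled cell type. Mitochondrially encoded genes were listed at 0 throughout and are not analysed here. In a principal component analysis of log2 CPM over 15136 genes, the first component held 46.3% of the variance. On it the first set lay at -41.1 (DMSO A), -54.9 (DMSO C) and -45.1 (Cpd10 A), and the second at 43.2 (DMSO B), 50.4 (Cpd10 B) and 47.5 (Cpd10 C). Library pairs within a set had correlations of log2 CPM across genes of 0.969 to 0.982, against 0.947 to 0.961 for pairs across sets.

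Several classes of gene met below need a word of background. A B cell builds its antibody heavy chain from 1 of many variable (V) segments, joined to D and J segments and then to a constant region, which class switching can exchange under interleukin 4 and CD40 signals. Ribosomal protein genes lie on many chromosomes but are expressed in a coordinated way, and their messages are translated under control of a pyrimidine run at their 5′ end. Processed pseudogenes are copies of messages pasted back into the genome, many of them nearly identical in sequence to a ribosomal protein gene. When oxygen is scarce, hypoxia-inducible factors bind a short motif containing ACGTG and raise genes of glycolysis, collagen hydroxylation and mitochondrial turnover.

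Some sequences carry the differences described below and are shown first. Rpl29 encodes a protein of the large ribosomal subunit, and the processed pseudogene Gm8210 (chr1:43189156-43189638, plus strand, GRCm38) matches it over 483 bases with 3 differing bases. Positions are counted from 1 at the first base of the copy, and each difference is written with the base of Rpl29 first. The differences were C72A, C300T and T423C. A further copy on the minus strand, Gm13841 (chr5:115801677-115802159), differed from Rpl29 by the same 3 changes. The stretches around each difference, taken from GENCODE M21 transcripts and oriented 5′ to 3′, are shown because, within the matched bases, only reads over the capital letters separate gene from copy.
Rpl29 around 72: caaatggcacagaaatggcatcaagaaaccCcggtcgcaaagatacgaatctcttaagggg
Gm8210 around 72: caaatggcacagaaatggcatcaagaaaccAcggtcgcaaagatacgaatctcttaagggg
Rpl29 around 300: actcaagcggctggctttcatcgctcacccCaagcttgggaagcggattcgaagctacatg
Gm8210 around 300: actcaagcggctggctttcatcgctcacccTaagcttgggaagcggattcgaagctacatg
Rpl29 around 423: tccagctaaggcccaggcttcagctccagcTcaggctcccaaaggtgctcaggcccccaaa
Gm8210 around 423: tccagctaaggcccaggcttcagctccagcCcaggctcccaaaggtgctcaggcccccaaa

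Rps3a1, which encodes a protein of the small subunit, has a copy named Rps3a3 (chr13:108670603-108671397, plus strand) with 9 differences and a copy named Rps3a2 (chr14:88123017-88123808, minus strand) with 4. The copies shared 2 of them, T216C and T534C, each shown with the differing base in capitals.
Rps3a1 around 216: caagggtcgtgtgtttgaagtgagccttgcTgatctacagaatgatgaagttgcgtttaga
Rps3a3 around 216: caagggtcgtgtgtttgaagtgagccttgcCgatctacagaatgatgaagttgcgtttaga
Rps3a1 around 534: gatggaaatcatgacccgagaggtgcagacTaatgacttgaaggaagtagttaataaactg
Rps3a3 around 534: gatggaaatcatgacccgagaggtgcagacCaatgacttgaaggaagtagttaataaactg

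Promoter sequences are from RefSeq (GRCm38.p6), 250 bases upstream of the start, 5′ to 3′ on the strand of the gene. Egln3 and P4ha1 stand for the hypoxia genes that were higher in the second set, and ACGTG on either strand is in capitals. Bnip3 is shown because its matches on both strands overlap. For Sycp1 the capitals mark CACGTG. Rps18 is shown from 120 bases before the start to base 25, with the first 5 transcribed bases in capitals, as a ribosomal protein gene that starts with C followed by pyrimidines.
Egln3 (chr12:54203875-54204124, minus): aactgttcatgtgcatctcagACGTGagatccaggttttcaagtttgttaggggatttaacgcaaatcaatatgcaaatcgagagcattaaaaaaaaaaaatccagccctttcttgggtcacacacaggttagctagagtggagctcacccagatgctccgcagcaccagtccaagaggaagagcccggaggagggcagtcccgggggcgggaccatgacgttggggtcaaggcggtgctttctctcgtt
P4ha1 (chr10:59323046-59323295, plus): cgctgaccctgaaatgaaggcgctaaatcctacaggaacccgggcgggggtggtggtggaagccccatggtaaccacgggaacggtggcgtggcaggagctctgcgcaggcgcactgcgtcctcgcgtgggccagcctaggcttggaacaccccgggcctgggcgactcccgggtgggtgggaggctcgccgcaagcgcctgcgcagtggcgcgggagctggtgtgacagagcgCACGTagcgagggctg
Bnip3 (chr7:138909507-138909756, minus): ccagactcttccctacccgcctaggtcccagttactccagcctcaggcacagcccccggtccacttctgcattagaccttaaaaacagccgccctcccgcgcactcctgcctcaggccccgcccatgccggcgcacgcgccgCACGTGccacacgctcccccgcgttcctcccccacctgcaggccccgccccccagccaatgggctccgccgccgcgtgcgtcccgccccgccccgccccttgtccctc
Sycp1 (chr3:102936101-102936350, minus): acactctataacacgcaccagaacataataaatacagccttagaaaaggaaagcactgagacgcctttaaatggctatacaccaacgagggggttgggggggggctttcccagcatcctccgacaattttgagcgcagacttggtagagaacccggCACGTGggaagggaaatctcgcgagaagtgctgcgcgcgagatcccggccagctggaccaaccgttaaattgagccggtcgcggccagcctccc
Rps18 (chr17:33955641-33955785, minus): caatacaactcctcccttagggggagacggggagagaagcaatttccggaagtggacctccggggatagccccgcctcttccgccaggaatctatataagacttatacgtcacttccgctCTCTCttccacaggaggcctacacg

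The clearest marks of the sets were genes with 3 or fewer counts in each library of one set and 50 or more in each library of the other. Among 54838 identifiers, 8 (0.0146%) were on in the second set only and 1 (0.00182%) in the first set only. Sycp1, which encodes a component of the synaptonemal complex of meiosis (chr3:102818499-102936100, minus strand), had 0, 2 and 0 counts in DMSO A, DMSO C and Cpd10 A, and 136, 128 and 166 in DMSO B, Cpd10 B and Cpd10 C. Rnf150, which encodes a RING finger protein (chr8:82863356-83091268, plus strand), had 151, 92 and 88 counts in the first set and 0 in each library of the second. Both genes were read in 3 libraries of one set and nearly silent in the other, whichever the treatment. They are the marker genes of the sets, so this pattern follows from how the sets were picked.

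The other meiosis genes that could be compared did not follow Sycp1 as a list. Of 52 germline and meiosis genes, 16 had no count in any library and 15 could be compared, with a median log2 difference of -0.09. That median ran from -0.43 to 0.17 under other ways of processing, so its direction did not hold. Among the 15 Sycp1 was apart (defined below) and higher and Piwil2, a germline small RNA partner, was apart and lower. Over all genes 5.66% were apart and higher and 3.22% apart and lower. Piwil2 lay at 2.06, 1.95 and 2.47 against 0.523, 1.22 and 1.78 CPM. Prdm9, the meiotic histone methyltransferase that places recombination, lay at 16.8 to 22.5 CPM in the first set and 17.8 to 19.7 in the second. Prdm9 values of the sets overlapped. The Sycp1 promoter holds 1 CACGTG, 94 bases before the start, a sequence found in 9.91% of the promoters of tested protein-coding genes.

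The other genes on in the second set only were 4 immunoglobulin V segments, 2 processed pseudogenes and 1 unclassified transcript. The V pseudogene Ighv1-33 had 3 counts in each first-set library and 227, 209 and 264 in the second set. Ighv7-2 had 0, 3 and 2 against 173, 79 and 96 counts. Ighv6-7 had 2, 0 and 0 against 97, 72 and 94, and the pseudogene Ighv12-2 had 0 throughout the first set against 69, 71 and 51. These 4 segments lie on chromosome 12, at the heavy chain locus. The pseudogenes were Gm12312, whose best match was Fgfr1op2 at 96.6% identity, with 0 counts against 96, 112 and 98, and Gm14287, best matched to Ywhaz, with 1, 1 and 0 against 87, 117 and 82. Gm45104, an unclassified transcript, had 0 in the first set against 53, 74 and 64. Just outside the thresholds, Slc52a3, a riboflavin transporter, had 54, 52 and 48 counts against 0, 0 and 0, and Acpp, a prostatic acid phosphatase, had 0, 0 and 2 against 70, 64 and 49.

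For the wider comparison, a log2 difference (second set minus first) was fitted for each of 15136 genes with the treatment in the model. A gene is called apart when this difference is at least 1 in size, a factor of 2, and the CPM of the 3 libraries of one set all lie above those of the other. By that rule 857 genes (5.66%) were apart and higher in the second set, and 487 (3.22%) were apart and lower, 1344 (8.88%) in all. Without a fold limit, 2846 genes (18.8%) had no overlap between the sets and were higher in the second, and 2588 (17.1%) were lower, 35.9% in all. The median difference over all genes was 0.0024, and 50.2% of genes were positive.

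The set difference recurred under both treatments, which use separate libraries. Within DMSO it compares B with A and C, and within Cpd10 it compares B and C with A. Across 15136 genes the 2 differences had a Pearson r of 0.60, and 72.8% had the same sign. The sets were chosen on these libraries, so this is a description, and genes are not independent replicates. Without ribosomal protein and immunoglobulin genes r was 0.58 over 14823 genes.

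**Figure D1:**
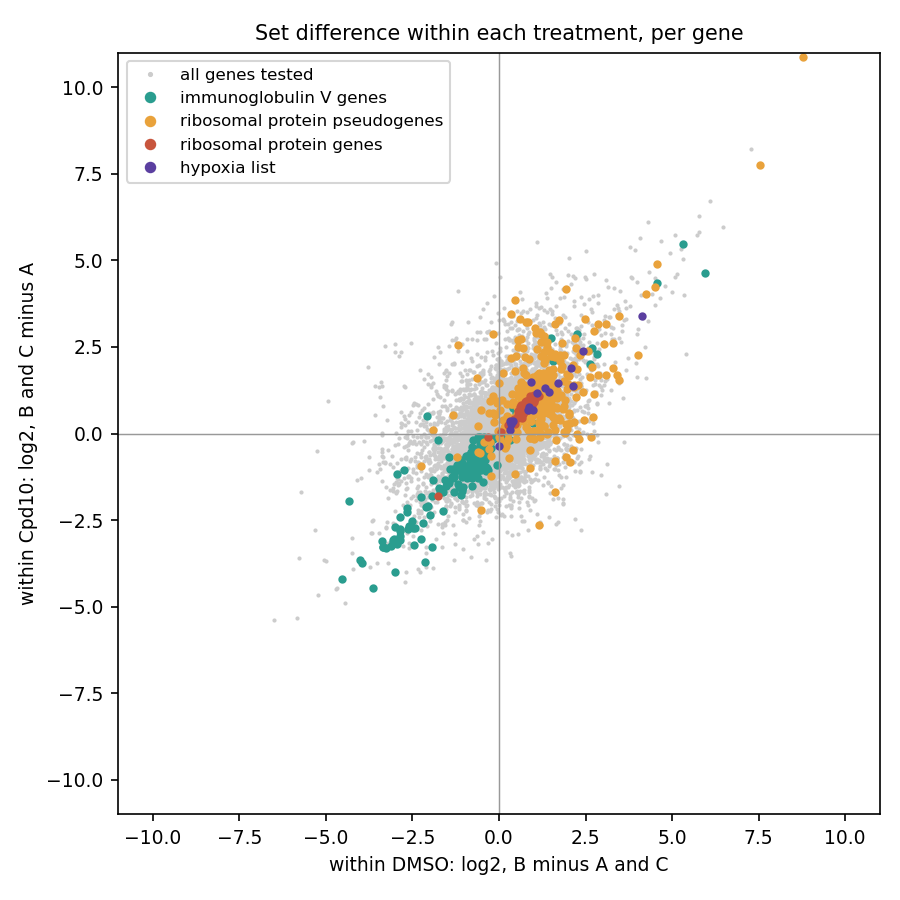
Each point is a gene, with its log2 difference between the sets within DMSO on the horizontal axis and within Cpd10 on the vertical axis. Ribosomal protein genes, their pseudogenes and the hypoxia list lie mostly to the upper right and immunoglobulin V genes mostly to the lower left, with r = 0.60 over 15136 genes.

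Ribosomal protein genes were the largest class shift by share of counts. They took 7.31%, 6.80% and 6.93% of the counts in DMSO A, DMSO C and Cpd10 A, and 11.8%, 12.3% and 11.0% in DMSO B, Cpd10 B and Cpd10 C. The lowest second-set library thus lay above the highest first-set library. The shift was broad and even: 45 of 47 large subunit genes and 30 of 32 small subunit genes had no overlap and were higher, beside 18.8% of all genes. Their median log2 differences were 0.83 and 0.86. Because most stayed just under the factor of 2, 4 genes of each list were apart and higher, beside 5.66% of all genes. Rpl29 was the only one apart and lower.

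Rpl3, a core protein near the peptidyl transferase centre, passed the limit with 1105, 1063 and 1117 CPM in the first set and 2420, 2507 and 2240 in the second. Its log2 difference was 1.12 ± 0.08 (SE). Rps18 lay at 1255, 1171 and 1306 CPM against 2516, 2761 and 2431, a difference of 1.02 ± 0.09. Rplp0, a protein of the ribosomal stalk, lay at 3233, 2951 and 2740 CPM against 4723, 4900 and 4436, a difference of 0.69 ± 0.09. In each of these genes the values of the sets were well separated and the libraries of a set close together.

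The shift extended to translation factors, of which 17 of 19 had no overlap and were higher (median 0.52), beside 18.8% of all genes. Eef1a1, which delivers aminoacyl-tRNA to the ribosome, lay at 8488, 9068 and 9023 CPM against 16397, 16478 and 15607. Eif4g2, a factor of cap-independent initiation, was the 1 member with no overlap that was lower, at 1333, 1263 and 1412 against 1047, 1028 and 1057 CPM. Hosts of small nucleolar RNAs, which like ribosomal protein genes often start with a pyrimidine run, had a median of 0.63, with 8 of 13 higher with no overlap. Among them Zfas1 lay at 44.8, 38.2 and 29.0 CPM against 77.1, 72.6 and 62.0. Genes of ribosome biogenesis and MYC targets moved less, with a median of 0.19 and 13 of 30 higher with no overlap, Npm1 among them at 1132, 899 and 962 against 1788, 1807 and 1627 CPM. Myc itself overlapped between the sets, at 372, 250 and 157 CPM against 178, 175 and 163.

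Pyrimidine starts (C, then 4 pyrimidines) were found in 14 of 68 RefSeq promoters of ribosomal protein genes, 20.6%, and in 2.38% of the promoters of tested protein-coding genes. The 68 promoters covered 58 genes of the ribosomal protein lists, and the starts are those RefSeq gives. Among protein-coding genes apart and higher the share was 3.85%, and among those apart and lower 2.38%. A start of this kind was therefore seen in few of the genes apart. Most ribosomal protein genes stayed under the factor of 2 and are not among them, so these shares say little about such starts and the set difference.

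**Figure D2:**
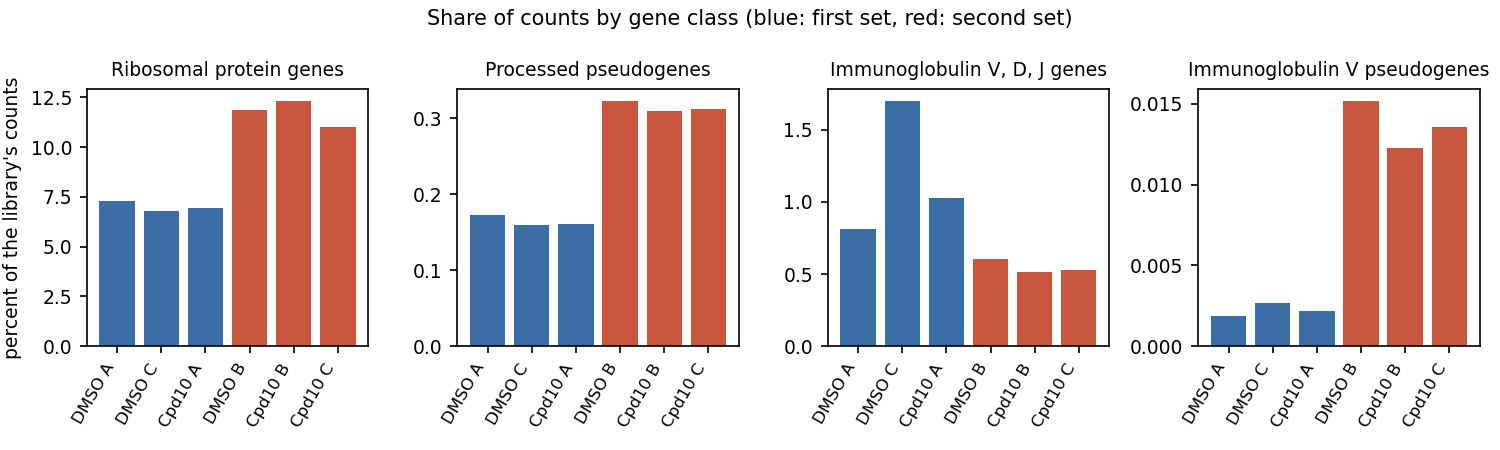
Bars give the percent of each library's counts in 4 gene classes, with the first set in blue and the second in red and every axis from 0. Ribosomal protein genes, processed pseudogenes and V pseudogenes are higher in all 3 second-set libraries (11.0% to 12.3%, 0.309% to 0.322% and 0.0123% to 0.0152%). The panel titled Immunoglobulin V, D, J genes counts V genes only, and these are lower (0.516% to 0.604%).

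Processed pseudogenes were apart and higher more often than genes in general. Of 851 tested, 234 were apart and higher (27.5%, beside 5.66% of all genes) and 14 lower (1.65%, beside 3.22%). Matched by sequence, 330 were copies of ribosomal protein genes with a median identity of 98.0%. Of these copies 150 were apart and higher, 45.5%, and 0 lower, with a median log2 difference of 1.11. Copies of other protein-coding genes numbered 481, with 82 apart and higher (17.0%) and 12 lower. The ribosomal protein copies summed to 692, 656 and 630 CPM in the first set and 1918, 1904 and 1814 in the second. They made up 0.912% to 0.977% of the summed level of genes and copies in the first set and 1.47% to 1.60% in the second. Their summed level therefore differed more between the sets than that of the genes they derive from. A large part of this came from a few families described below. Copies of Rps3a1 summed to 9.81, 10.2 and 11.5 CPM against 425, 463 and 400. Those of Rpl29 summed to 2.10, 1.97 and 1.94 against 119, 109 and 107. Reads that fit a gene and its copy equally well cannot be assigned with certainty, so values of both are uncertain.

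A few families departed from the common pattern. Rpl29 itself was lower in the second set, at 796, 742 and 770 CPM against 225, 239 and 206, a log2 difference of -1.78 ± 0.09. Its copy Gm8210 was at 0.179, 0.195 and 0 CPM against 104, 95.6 and 90.2, and Gm13841 at 0.627, 0.462 and 0.397 against 13.9, 11.8 and 14.9. Gene and copies thus moved in opposite directions, and the copies that moved carry the same 3 bases shown above. Rpl29 and its 6 copies together summed to 798, 744 and 772 CPM against 344, 347 and 312. Copies held 0.251% to 0.265% of that sum in the first set and 31.3% to 34.6% in the second. The sum was also lower in the second set. How reads fitting both gene and copy were counted is not given, and the source of the difference was not tested.

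Rps3a1 was the small subunit gene with the least difference, 0.06 ± 0.08, at 1363, 1364 and 1420 CPM against 1430, 1530 and 1399. Rps3a3, its copy, was at 1.75, 1.90 and 1.59 CPM in the first set and 349, 383 and 322 in the second. Rps3a2 was at 3.40, 2.14 and 3.66 against 62.5, 69.9 and 70.0. Summed with its 6 copies, Rps3a1 reached 1373, 1374 and 1432 CPM against 1855, 1993 and 1798, so the sum was higher in the second set where the gene alone overlapped between them. Copies took 0.714% to 0.803% of the sum in the first set and 22.2% to 23.3% in the second.

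Copies of Rplp0, Rpl15, Rpl34 and Rplp1 also differed more than their genes, with median log2 differences of 2.73, 1.44, 3.19 and 2.78 for the copies against 0.69, 0.38, 0.43 and 0.96 for the genes. The 6 copies of Rplp0 summed to 16.7, 20.2 and 15.7 CPM against 116, 113 and 113. Copies of Rpl15 held 5.38% to 5.99% of the family sum in the first set and 17.8% to 18.4% in the second. By contrast, the single tested copy of Rpl23 held 0.906% to 0.991% against 1.02% to 1.42%, a copy share that barely moved. Families thus differed in how far copies moved beyond their gene. Whether the difference in copies reflects transcription of the copies or the assignment of reads to them was not tested.

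**Figure D3:**
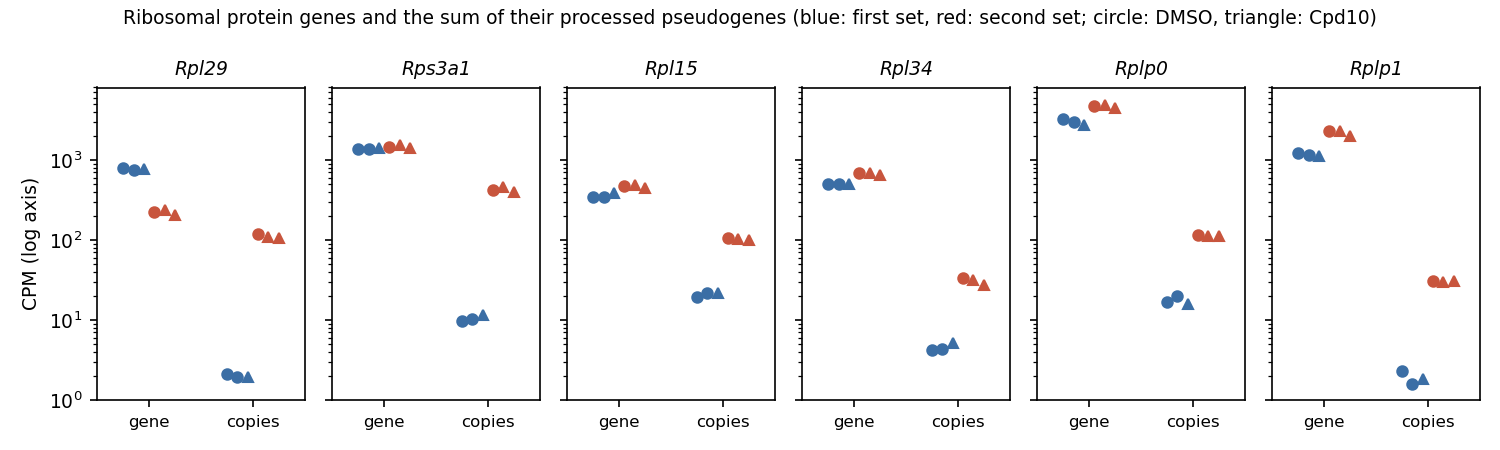
For 6 ribosomal protein genes, points give the CPM (log axis) of the gene and of the sum of its processed pseudogenes in each library, with the first set in blue, the second in red, DMSO as circles and Cpd10 as triangles. The copies are higher in the second set in all 6 families, while Rpl29 is lower (206 to 239 against 742 to 796 CPM) and Rps3a1 overlaps.

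Immunoglobulin V segments moved in both directions, by segment. Of 101 tested functional heavy chain V genes, 55 were apart and lower and 11 apart and higher. Of 22 heavy chain V pseudogenes 16 were apart and higher and 1 lower. Over all genes 3.22% were apart and lower and 5.66% apart and higher. The largest family, Ighv1, had 40 of 50 genes apart and lower and 4 higher (median -2.60), summing to 1767, 3993 and 2330 CPM in the first set against 639, 526 and 523. The Ighv1 pseudogenes went the other way, with 10 of 16 apart and higher and 1 lower, summing to 6.96, 8.83 and 8.55 CPM against 58.2, 45.4 and 49.4. Members of the same family at the same locus thus lay on opposite sides.

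Among single members, Ighv1-26 lay at 208, 452 and 276 CPM against 42.5, 30.2 and 35.3. Ighv1-59 was at 26.7, 52.8 and 37.3 against 2.39, 2.76 and 2.74 CPM. Other families were less one-sided. Ighv5 had 1 of 9 genes apart and lower and a median of -0.03, and Ighv2 had 2 of 8 higher, 1 lower and a median of 0.15. Within Ighv5 a single gene, Ighv5-16, was at 32.7, 78.9 and 43.0 CPM against 3.08, 3.58 and 3.11. V segments are similar in sequence, so counts of single segments are uncertain.

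Light chain V genes behaved more evenly. Of 98 kappa V genes, 28 were apart and lower and 0 higher, beside 3.22% and 5.66% of all genes. All 98 had a negative difference, and the median was -0.84. The kappa V genes summed to 4528, 9492 and 5934 CPM in the first set and 3924, 3478 and 3475 in the second. DMSO C was the highest library in this sum. Kappa genes thus shared a common lower level in the second set, without the split into higher and lower segments seen for the heavy chain.

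Most constant region genes were lower in the second set too, and 1 was higher. The list of 13 genes includes Jchain. Of them 9 had no overlap and were lower, 6 of those apart, and 1 was apart and higher. Over all genes the shares were 17.1%, 3.22% and 5.66%. The median of the list was -0.73 (-0.48 without DMSO C, the library with the highest immunoglobulin share). Ighm, the constant region of IgM, lay at 7463, 17922 and 12301 CPM against 5894, 6207 and 6234. Ighd, the constant region of IgD that naive B cells carry, was at 190, 327 and 166 against 19.6, 21.0 and 24.1, a log2 difference of -3.29 ± 0.37. Igha, the constant region of IgA, was the 1 member higher, at 3.54, 5.21 and 1.56 against 20.4, 12.9 and 13.8 CPM. The products of interleukin 4 switching were less separated. Ighg1 lay at 6096, 10328 and 7057 CPM against 4689, 4858 and 4826, and Ighe overlapped, at 4637, 8056 and 3436 against 4980, 4106 and 4100.

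Genes of the hypoxia response were higher in the second set, with a median log2 difference of 1.14 over 17 genes. Of the 17, 9 were apart and higher, 0 lower, and 16 higher with no overlap, beside 5.66%, 3.22% and 18.8% of all genes. Egln3, the prolyl hydroxylase that marks hypoxia-inducible factor for degradation and is itself induced by it, lay at 1.52, 2.63 and 2.86 CPM in the first set and 35.6, 31.0 and 30.2 in the second, a log2 difference of 3.77 ± 0.22. Bnip3, a receptor for mitochondrial autophagy, lay at 13.2, 24.2 and 24.1 against 75.4, 97.6 and 81.3. P4ha1, a collagen prolyl hydroxylase, lay at 40.5, 68.9 and 58.9 against 171, 162 and 163. In these genes DMSO A was the lowest library, and the second-set libraries differed little among themselves.

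Ero1l, an oxidase of disulphide formation, was at 89.6, 111 and 131 CPM against 274, 312 and 287. Ddit4, an inhibitor of mTORC1, was at 80.5, 99.1 and 84.3 against 226, 230 and 195. The growth factor Vegfa was higher with no overlap at a smaller difference, 0.75 ± 0.13. Car9, carbonic anhydrase 9, was the member whose values overlapped, at 2.37, 2.77 and 3.46 against 2.59, 3.37 and 2.10 CPM. Most members of the list were thus higher in the second set, but not all. Whether oxygen supply differed between the sets was not tested.

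Glycolysis genes followed, with 15 of 17 higher with no overlap, 1 apart, and a median of 0.73. Over all genes 18.8% were higher with no overlap and 5.66% apart and higher, the latter near the 1 member here. Slc16a3, the lactate exporter, was the member apart, at 8.78, 30.9 and 48.6 CPM against 113, 145 and 142. DMSO A was the lowest first-set library, and the second-set values were close to each other. Pgk1, phosphoglycerate kinase, lay at 323, 415 and 519 against 846, 869 and 821. Hexokinase 2 (Hk2) overlapped, at 107, 90.3 and 133 against 143, 134 and 131. Nuclear-encoded subunits of oxidative phosphorylation were higher as well, by a small median of 0.26 and with 0 apart. Of 75 genes, 52 were higher with no overlap and 0 lower, beside 18.8% and 17.1% of all genes.

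Of 43 RefSeq promoters of the hypoxia and glycolysis lists (30 genes), 24 held ACGTG on either strand, 55.8%, against 25.4% of the promoters of tested protein-coding genes. This search was added after the values had been seen. Within Egln3 the match lies 229 bases before the start, in P4ha1 16 bases before, and in Bnip3 108 and 107 bases before on opposite strands, as printed above. Among all protein-coding genes apart and higher the share was 25.4%, and among those apart and lower 17.5%. The share among genes apart and higher equals that of the tested background.

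**Figure D4:**
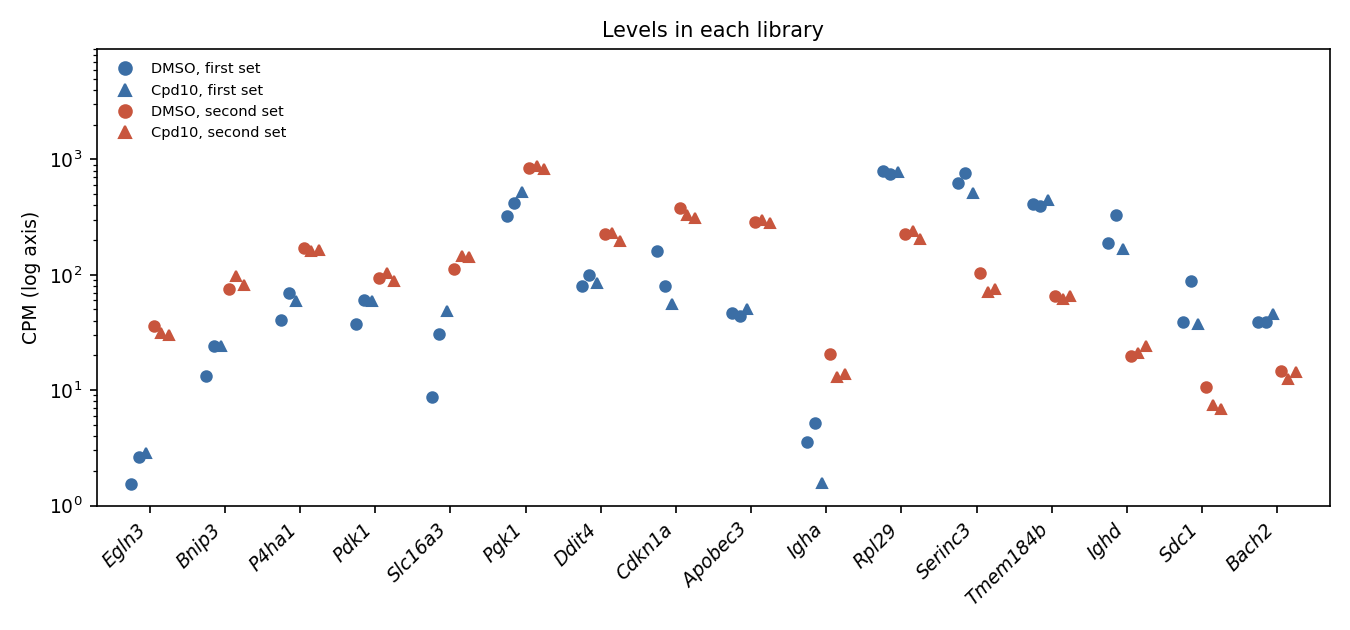
Points give CPM on a log axis for 16 genes in each library, with the first set in blue, the second in red, DMSO as circles and Cpd10 as triangles. The genes from Egln3 to Igha are higher in the second set (Egln3 30.2 to 35.6 against 1.52 to 2.86 CPM) and those from Rpl29 to Bach2 are lower, with no overlap in any of the 16.

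Targets of p53 were another group on the higher side, with a median of 0.57. Of 22 genes, 5 were apart and higher, 0 apart and lower and 12 higher with no overlap. The matching shares of all genes were 5.66%, 3.22% and 18.8%. Cdkn1a, the inhibitor p21 of cyclin-dependent kinases, was at 159, 79.3 and 56.2 CPM against 382, 332 and 312, a log2 difference of 2.09 ± 0.42. Plk2, a stress-induced kinase, was at 37.3, 15.6 and 10.5 against 52.6, 42.6 and 41.1, and Zmat3 at 98.8, 61.2 and 57.2 against 160, 143 and 163. DMSO A was the highest first-set library for each of these, nearest to the second set.

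Genes of the cell cycle lay on the other side. None was apart, but 19 of 34 S phase genes and 19 of 35 G2 and M phase genes were lower with no overlap and 0 higher, beside 17.1% of all genes, with medians of -0.42 and -0.44. Mki67, the proliferation marker, lay at 745, 860 and 1095 CPM against 523, 498 and 541. Top2a, topoisomerase of replicating DNA, was at 796, 785 and 999 against 545, 595 and 613. Mcm6, of the replicative helicase, was at 477, 373 and 471 against 366, 338 and 337. Replication-dependent histone genes had a median of -0.15 (0.03 without DMSO B), with 2 of 28 lower with no overlap, below the 17.1% of all genes. In these poly A selected libraries the whole list summed to only 49.6 to 64.4 CPM in the first set and 37.0 to 59.6 in the second. At this level the list cannot show whether histone messages followed the S phase genes. Large chromatin modifiers had a median of -0.23, with 15 of 30 lower with no overlap, among them Chd3 at 548, 611 and 542 against 336, 324 and 382 CPM.

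Markers of B cell differentiation differed gene by gene more than as lists. Of 28 plasma cell genes 4 were apart and lower, 0 apart and higher and 12 lower with no overlap. The matching shares of all genes were 3.22%, 5.66% and 17.1%. The median of the plasma cell list was -0.35. That median was -0.19 without DMSO C and -0.21 without DMSO B. Sdc1, the plasma cell antigen CD138, was at 39.2, 87.7 and 37.7 CPM against 10.7, 7.41 and 6.87. Jchain, which joins IgM and IgA units, was at 730, 2057 and 732 against 407, 262 and 224. DMSO C was highest for both, as it was for immunoglobulin V genes. Prdm1, the regulator of plasma cell fate, was at 37.2, 74.3 and 35.2 against 30.4, 20.4 and 21.0, lower with no overlap, while Xbp1 overlapped, at 1026, 1523 and 1391 against 1075, 1274 and 1310. Genes of the unfolded protein response had a median of -0.18, with 8 of 23 lower with no overlap and 0 apart. In bulk RNA, fewer cells of a type and less RNA per cell cannot be told apart.

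The memory and naive lists were mixed. Of 20 memory genes, 5 were apart and lower and 2 higher, and of 24 naive follicular genes 3 were apart and lower and 1 higher. Over all genes 3.22% were apart and lower and 5.66% apart and higher. The naive median was -0.25 over all libraries and 0.08 without DMSO B. Bach2, a repressor that holds back plasma cell fate, was at 38.6, 39.1 and 45.9 CPM against 14.8, 12.4 and 14.5. Ccr6, a chemokine receptor, was at 8.19, 14.1 and 4.21 against 0.798, 0.659 and 0.719. Bcl6, the master regulator of germinal centre cells, went the other way at 40.4, 36.2 and 29.9 against 60.9, 62.5 and 63.8, as did Basp1 at 48.8, 30.1 and 19.7 against 118, 122 and 113. The germinal centre list as a whole had a median of 0.07, with 1 of 23 apart and higher and 2 lower. Its count on the higher side, like that of the naive list, was near the share of all genes.

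B lineage genes (median -0.07) and the interferon (-0.11), NF-kB and CD40 (-0.10) and interleukin 4 (-0.09) lists lay near the median of all genes. The interferon median was 0.03 without DMSO B, and that of interleukin 4 was 0.03 without DMSO C, so neither direction held. The NF-kB and CD40 median was 0.01 without DMSO B. Single members still stood apart, such as Fcrla, an Fc receptor-like protein of B cells, at 11.2, 23.1 and 12.6 CPM against 3.80, 3.20 and 2.98. Gbp7, an interferon-induced GTPase, was at 20.7, 29.1 and 32.4 against 8.51, 7.71 and 7.27, and Bcl2a1d, an anti-apoptotic gene with near-identical copies whose reads are uncertain, was at 86.7, 62.6 and 63.0 against 150, 206 and 190. Foxo1, the labelled target of Cpd10, was at 137, 155 and 130 CPM in the first set and 122, 115 and 111 in the second, a log2 difference of -0.23 ± 0.08. Pik3cg, a catalytic PI3-kinase subunit, was at 10.9, 34.3 and 11.6 against 4.84, 1.83 and 2.61.

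**Figure D5:**
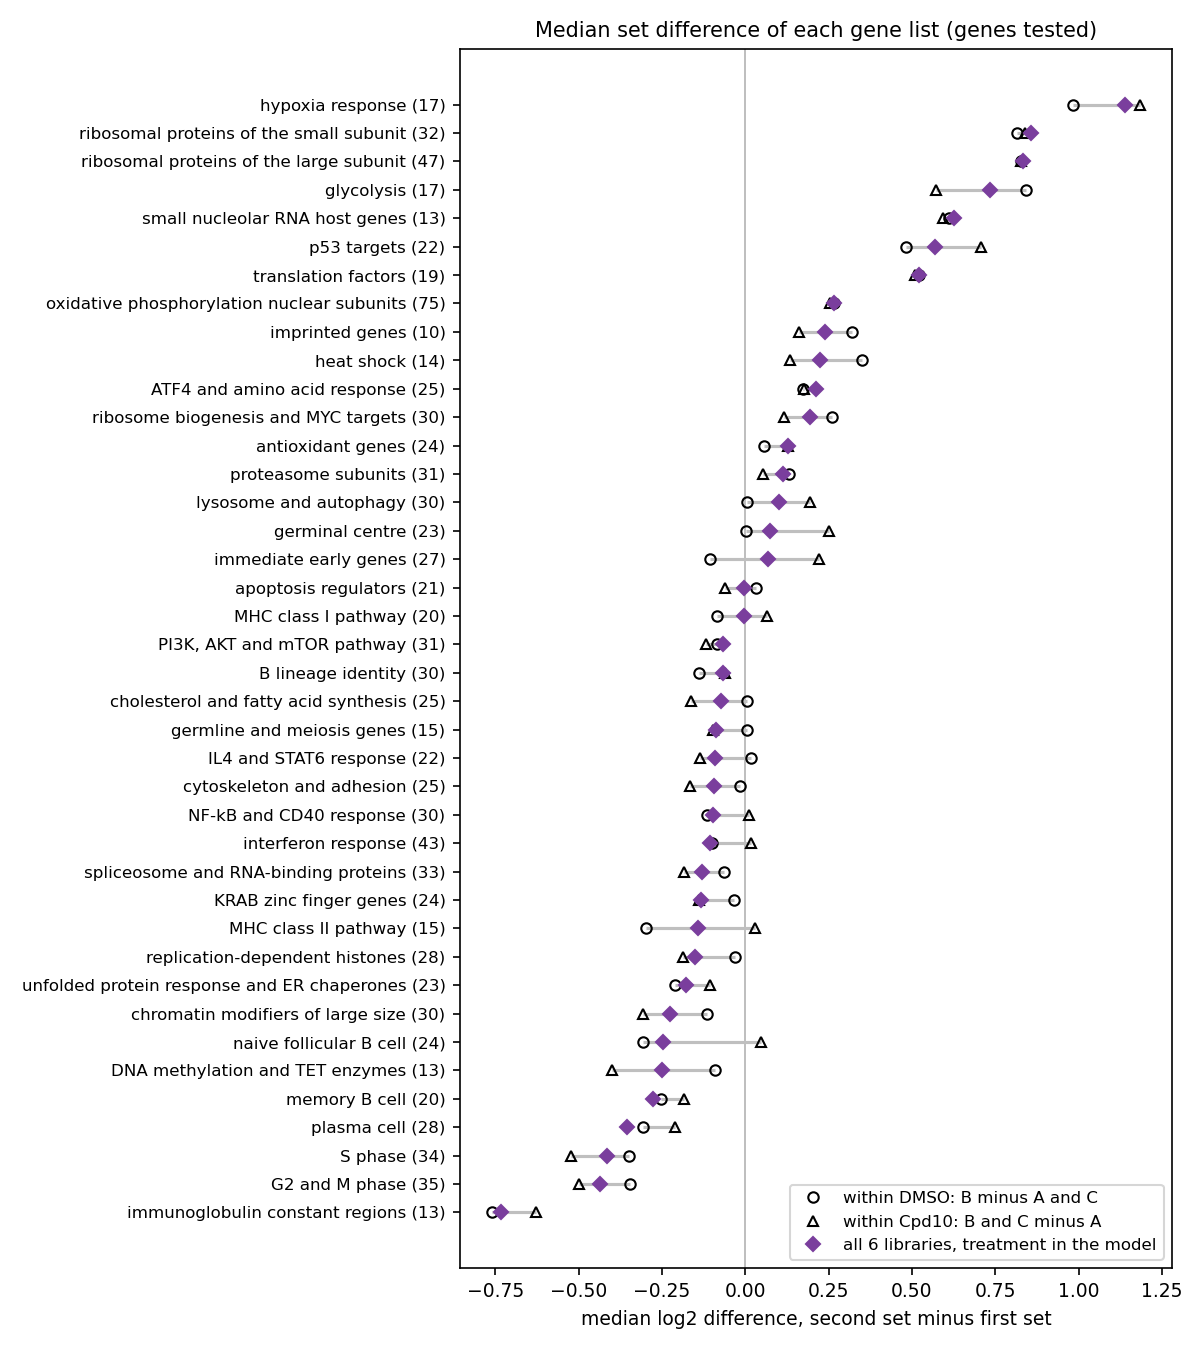
Each row is a gene list with at least 10 genes tested, with the median log2 difference between the sets from all 6 libraries (diamond), within DMSO (circle) and within Cpd10 (triangle). The hypoxia response (1.14) and ribosomal protein lists (0.83 and 0.86) are highest and immunoglobulin constant regions (-0.73) lowest, and most lists lie between -0.25 and 0.25.

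Other single genes were named for the size of their difference. Apobec3, a cytidine deaminase that restricts retroviruses, was at 46.2, 43.6 and 51.0 CPM in the first set and 287, 300 and 282 in the second, a log2 difference of 2.59 ± 0.09. Serinc3, a membrane protein that also restricts retroviruses, was on the opposite side at 624, 756 and 508 against 103, 71.6 and 75.1, a difference of -2.77 ± 0.09. Tmem184b, a membrane protein, was at 411, 397 and 440 against 65.1, 61.8 and 65.1. Being picked for their difference, these genes had to lie apart, and Apobec3 and Serinc3 did so in opposite directions.

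Slc15a2, a peptide transporter, was higher at 3.69, 4.04 and 4.25 CPM against 32.9, 33.2 and 30.7. Tsku, a secreted leucine-rich repeat protein, was at 2.37, 2.14 and 1.37 against 36.2, 28.4 and 30.2, and Cyp4f18, a leukotriene-metabolising cytochrome, at 1.34, 2.94 and 2.36 against 12.2, 23.7 and 20.8. Ak4, a mitochondrial adenylate kinase, was at 0.672, 3.80 and 5.60 against 30.7, 32.6 and 31.6, and Arrdc4, an arrestin-like protein, at 5.96, 5.23 and 1.76 against 20.1, 23.9 and 16.0. Ak4 and Arrdc4 varied more within the first set than the others did. On the lower side, Cnbd2 was at 28.3, 22.8 and 21.7 CPM against 2.61, 3.12 and 3.43. Fcrls was at 39.5, 58.5 and 28.1 against 5.70, 3.96 and 5.48, and Icosl, the ligand of ICOS on T cells, at 34.3, 50.2 and 12.0 against 4.29, 2.00 and 1.60. Kbtbd11 was at 23.9, 35.5 and 47.4 against 5.53, 8.52 and 7.48.

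Among markers of other cell types, those of NK cells were low, and some of them differed between the sets. The summed NK cell markers lay at 13.1 to 22.7 CPM in the first set and 3.53 to 5.84 in the second. Of 4 tested, 3 were apart and lower, beside 3.22% of all genes. Gzmb, granzyme B, had 117, 296 and 288 counts in the first set and 0, 4 and 4 in the second. Gzma had 44, 134 and 172 against 0, 0 and 16, and Prf1, perforin, 344, 384 and 275 against 126, 78 and 90. The defining NK receptor gene Ncr1 had 0 counts in all 6 libraries, and Klrb1c had 0, 8 and 4 against 4, 0 and 0. Eomes overlapped, with 80, 91 and 10 counts against 72, 17 and 8, as did Klra4, with 0, 0 and 2 against 0, 32 and 16. Of all 12 markers, 3 had counts higher in the first set with no overlap and 0 in the second. The matching shares of the genes tested were 17.1% and 18.8%. Of the mast cell and basophil markers, 5 of 9 had no count in any library and Kit, a receptor kinase, had 148, 86 and 460 counts against 2, 14 and 18.

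Of the 16 T cell markers 7 could be tested, with 3 lower in the second set with no overlap (beside 17.1% of all genes), 2 of them apart, and 0 higher. Thy1, a surface antigen of mouse T cells, lay at 407, 424 and 269 CPM against 217, 186 and 172. The CD3 subunits of the T cell receptor were near 0 in both sets: Cd3e had 0, 4 and 2 counts against 14, 14 and 8, and Cd3g had 0 in the first set and 0, 0 and 2 in the second. The sum of the T cell list lay at 334 to 523 CPM in the first set and 210 to 276 in the second. The part of these cells in the differences above was not tested.

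Features of the genes went with the difference only weakly. Over 12099 protein-coding genes outside the ribosomal protein lists, in 5 equal bins of transcript length the shortest had a median difference of 0.13 and the longest -0.12. The bin with the lowest GC content had a median of -0.06 and 2.48% apart and higher, and the highest bin 0.05 and 5.21%. The count of genes apart varied more with level: 11.9% of the lowest bin by mean CPM were apart and higher and 6.86% lower, against 0.579% and 0.455% of the highest bin. The X chromosome had the largest share of any chromosome apart and higher, 7.03% of 384 genes, with 0.781% lower. Of all protein-coding genes tested, 3.86% were apart and higher and 2.23% lower. Of the 733 genes apart, 47.9% had another gene apart within 500 kb, as did 47.3% of the 11366 others.

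Both sets had the sex given in the labels. Ddx3y, of the Y chromosome, lay at 114, 124 and 118 CPM against 102, 118 and 117, and Xist, the transcript of the inactive X, had 0 to 18 counts in every library. Nnt, a mitochondrial transhydrogenase, was low in both sets, at 1.01, 0.122 and 0.397 CPM against 0.220, 0.710 and 0.798, with overlap.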

How the data were processed

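Poly A selected RNA from 6 libraries of cultured mouse B cells, 3 per treatment, was sequenced with a strand-marking kit, per the labels' protocols. The deposited values are raw counts of reads, whole numbers with no scaling by the authors. Per the submitters' processing notes, the tools were STAR (2.7.10a), featureCounts (2.0.6) and DESeq2, with build GRCm38 (mm10). How strand and multi-mapping reads were handled, and the annotation release, are not given in the sources used here, and genes with near-identical copies or opposite-strand partners are therefore uncertain. Of 54838 identifiers, 54809 were found in GENCODE M21, and 29 were not.

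The library sets, their marker genes and the gene lists were chosen with earlier results of these data known. edgeR 4.0.16 (R 4.3.3) fitted treatment and set to the 15136 genes passing its filter for low counts, with TMM scaling, and gave the log2 difference and its SE. No p-value was used. CPM use the TMM-scaled library sizes, and log2 CPM a prior count of 2. Symbols with 2 identifiers (Aldoa) count under each. The fit was tested on simulated data with 200 changed genes. Pseudogenes were matched to protein-coding transcripts with blastn 2.17.0, with at least 50% of the copy aligned. Promoter letters were searched on both strands in RefSeq windows from 250 bases before to 50 after the start.

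Genes were named by rule: Sycp1, Rnf150, genes on in one set, the 10 genes most apart in each direction with a mean of at least 10 CPM (clone names and V segments left out), for each list its 2 members with the highest mean and up to 3 apart, and a short list of regulators. A few genes this rule names are not reported here. Chosen after their values were seen were Cd79a, P4ha1, Pdk1, Pgk1, Hk2, Vegfa, Car9, Zmat3, Eif4g2, Rps3a1, Rpl15, Rpl23, Rpl34, Rplp1, Gm8210, Gm13841, Slc52a3, Acpp, Cd3e, Cd3g, Ncr1, Klrb1c, Eomes, Klra4 and the single V genes Ighv1-26, Ighv1-59 and Ighv5-16. Alternatives were other scalings, no filter, DESeq2 1.42.0, no treatment term, the replicate letter as a block, each treatment alone, each library left out, and other thresholds. With 3 libraries a set, the spread between libraries limits precision, and it may be technical, since no label says that replicates are separate cultures.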

Additional observations from a re-analysis of the deposited data

Results flagged for a closer look

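Of the 15136 genes tested, 1793 (11.8%) had a set difference that went one way in every DMSO library and the other way in every Cpd10 library, and 7927 (52.4%) went the same way in both. Among the 182 genes covered by the naming rule these were 6 and 153, and the 6 are given here. Each value is the log2 difference within a treatment, second set minus first, and whether the difference varies with the treatment was not tested. Myc, the growth regulator, had -0.779 within DMSO and 0.109 within Cpd10. DMSO A and DMSO C had 372 and 250 CPM and the 4 other libraries 157 to 178. Fth1, the ferritin heavy chain, had -0.0435 within DMSO and 0.451 within Cpd10, and Cpd10 A at 303 CPM was the library below the others. Cd74, the invariant chain of MHC class II, had -0.124 and 0.193. Inpp5d, the phosphatase SHIP1, had -0.139 and 0.13. Psmd2, a proteasome subunit, had 0.0519 and -0.0875, and Trim28, a corepressor of retroelements, had 0.181 and -0.0317. Of these genes Myc had the largest difference within DMSO and Fth1 the largest within Cpd10.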

How the results depend on the processing

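Every one of the 1344 genes apart kept its sign under each other scaling, DESeq2, no filter, no treatment term and each library left out. A gene apart has no overlap between the sets by definition, so these settings could hardly turn its sign. In the replicate block 1321 of the genes kept their sign, within DMSO 1338 and within Cpd10 1342. Other scalings and DESeq2 moved the median of all genes to at most -0.05 (library totals). Of genes apart, 63.8% were higher in the second set, and 59.0% to 65.7% under the alternatives other than DMSO alone, where it was 54.3%. Leaving out a library gave 1040 to 1217 genes apart and higher and 581 to 723 lower, with fewer libraries that must not overlap. Without the filter on low counts 739 were lower. At 1.5-fold 1430 were higher and 970 lower, and at 4-fold 299 and 163. Within DMSO alone the counts were 1714 and 1440, and within Cpd10 alone 2095 and 1150. Genes on in the second set only numbered 4 at 1 or fewer against 30 or more counts and 4 at 10 or fewer against 100 or more. Genes on in the first set only numbered 2 at 1 or fewer against 30 or more, and 1 to 2 with a library left out.

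Of 48 lists with at least 3 genes tested, 31 kept the sign of their median under every alternative and 17 did not. The medians of these 17 lay between -0.25 and 0.46 in the fit to all 6 libraries. They include MHC class I and II, immediate early, NF-kB, histone, germline and B1 lists. The interferon list was at 0.021 and the naive follicular list at 0.081 within Cpd10, and with a library left out they ranged from -0.154 to 0.032 and from -0.320 to 0.079. The interleukin 4 list ranged from -0.152 to 0.035 with a library left out. The S phase median ranged from -0.525 to -0.360, G2 and M phase from -0.500 to -0.357 and plasma cell from -0.448 to -0.194. Without the treatment term the hypoxia median was 0.92 and G2 and M phase -0.34. G2 and M phase was at -0.35 within DMSO, and within Cpd10 S phase was at -0.52 and plasma cell at -0.21. The cause was not tested.

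With the replicate letter as a block (replicate block), the set difference rests on letter C alone. The medians were then 0.71 for the large and 0.69 for the small ribosomal subunit, 0.44 for glycolysis, 0.53 for hypoxia, 0.88 for p53 targets, -0.36 for G2 and M phase, -0.58 for plasma cell and -1.56 for immunoglobulin constant regions, so hypoxia then lay below the ribosomal and p53 lists. Same-lettered libraries had correlations of their deviations of 0.31 (A), 0.43 (B) and -0.31 (C). Both A libraries lie in the first set and both B in the second, so for A and B pairing by letter and by set cannot be told apart. The C libraries are split between the sets, and theirs was the negative correlation. The sets were picked from these same counts, so a pairing by letter was not tested, and the letters were not used as pairs. The block gave 862 genes apart and higher and 578 lower. Counting error limits genes below about 10 CPM, and 3 libraries a set limit the rest.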

Other observations

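T cell receptor alpha variable segments, which B cells do not rearrange, had low counts in every library. Of 6 tested, 4 were apart and higher in the second set, beside 5.66% of all genes. Trav15-1-dv6-1 lay at 1.97, 2.7 and 4.85 CPM in the first set and 8.75, 14.4 and 15.5 in the second, and Trav14d-2 at 0.358, 0.657 and 0.771 against 2.37, 2.61 and 2.69. Trac, the constant segment of the same chain, overlapped, with 43, 24 and 17 counts against 47, 10 and 24. These segments have near-identical copies in the locus, so their counts are uncertain, and they were singled out after their values were seen.

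Among KRAB zinc finger genes, which repress retroelements, the median difference was -0.13, and the members apart were 2 of 24 tested on the higher side and 1 on the lower, beside 5.66% and 3.22% of all genes. Zfp429 lay at 6.34, 5.84 and 6.61 CPM against 0.798, 1.24 and 1.22, and Zfp760 at 13.2, 14.0 and 20.8 against 34.9, 48.2 and 47.2.

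Pdgfrb, a growth factor receptor of mural cells, was at 0.224, 0.146 and 0 CPM in the first set and 4.51, 4.01 and 2.77 in the second, and Cdh5, a cadherin of endothelial cells, went the other way at 1.37, 0.973 and 0.837 against 0.716, 0.203 and 0.266. Pecam1, the other member tested, overlapped. Of the 14 fibroblast and endothelial markers 8 had no count in any library.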
